A study of Drosophila melanogaster with 4 samples.

Results

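The CCR4-NOT subunits were followed in heads of Drosophila melanogaster after feeding with tetraethylammonium chloride (TEA), an organic cation that blocks potassium channels. The subunits were chosen by symbol from a list of 7: Not1, Rga, Not3, Pop2, twin, Not10 and Not11. Those with a ratio on at least 3 of the 4 arrays were kept, which left 4 of the 7, among 1379 genes and 3150 probes that met the same condition. Not11 was singled out with its ratios known, so its values, and those of the positions beside it, are given as a description, and nothing is read from their place in the fit.

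Flies were unmated males of the Oregon R wild-type strain, 3 to 4 days old at the start. One set received food with 16 mg/ml TEA for 7 days. The other received normal food for the same time, with 30 flies per vial in both. Each of 4 biological replicates set 1 pool of TEA heads against 1 pool of normal-food heads on a 2-colour cDNA array, with TEA in Cy5 in replicates 1 and 2 and in Cy3 in replicates 3 and 4.

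CCR4-NOT is a large complex that shortens the poly(A) tail of mRNAs in the cytoplasm, a step that precedes decapping and decay. Not1 is the scaffold on which the other subunits assemble. Pop2 and twin, the fly Caf1 and Ccr4 proteins, are the nucleases; Rga, the fly Not2, and Not3 form a module at one end of Not1, and Not10 and Not11 form a module at the other. In neurons such control of tail length is known to act on localised and microRNA-targeted mRNAs.

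The deposited value is the log2 of the ratio of the 2 dyes on an array, after normalization and spot filtering by the authors. It carries no level, so subunits are compared by their ratios and not by abundance. No label states the direction of the ratio. It was read as Cy5 over Cy3 on every array, and replicates 3 and 4 were sign-reversed, so that a value below 0 means a lower signal with TEA. If the ratio ran the other way on every array, all signs below would turn. The arrays held values for 6252, 6212, 5913 and 5445 of 27648 spots in replicates 1 to 4, and the number of arrays limits the precision. Median ratios of the tested probes were -0.09, -0.08, 0.24 and 0.06 in replicates 1 to 4. Across the tested probes, the Spearman correlation was 0.46 between replicates 1 and 2 and 0.34 between replicates 3 and 4. Between arrays of opposite dye orientation it ran from -0.17 to 0.24. The arrays thus agreed less across the dye swap than within a dye orientation, and the cause was not tested. Of 28 marker genes of brain, eye, fat body, muscle and testis, 8 were tested, with 0 past the limma threshold; none of the 4 neuronal or the 4 testis markers was among them. Of the genes listed as fat body markers, the 2 probes of apolpp had mean log2 ratios of 1.05 and 0.52. FASN1 had 0.45, Yp2 0.05 and Lsp2 -0.00. The flies were males, and whether Yp2 serves as a fat body marker in males was not examined. Gs2 of glia stood at 0.46, Arr1 of the eye at 0.40, and Act88F and Mlc2 of muscle at 0.23 and -0.08. Their part in the results was not tested. A ratio from whole heads cannot tell fewer cells of a type apart from less RNA per cell.

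The catalytic and scaffold part of the complex was represented by Pop2 alone. Not1 had 2 probes and Rga 1, with no value on any array, and twin had no probe among those named here. A second Pop2 probe was also empty on all arrays. The same was true of the single probes for Cnot4, the RING-finger subunit, and Rcd-1, the fly Caf40. No listed subunit fell just short of the condition: each probe either had 0 arrays with a value or at least 3, and Not10, with 3, was the member closest to the limit. Over the table, 10609 of 13824 probe positions had no value on any array and 64 had values on 2.

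Not11 (CG13567) had log2 ratios of -1.12, -1.0, -1.27 and -1.05 in replicates 1 to 4. All 4 arrays lay below 0 and within a narrow range, and TEA in Cy5 and TEA in Cy3 gave nearly equal means, -1.06 and -1.16. The mean was -1.11 ± 0.11 (SD, n = 4), or 0.463 of the normal-food signal with TEA. As deposited, before any sign was turned, the values were -1.12, -1.0, 1.27 and 1.05, so the sign followed the dye that carried the TEA sample. If the swapped arrays had been deposited already turned, the mean would be 0.05 ± 0.49 (SE) and no lower value with TEA would remain.

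Pop2 (CG5684), the Caf1 deadenylase, had log2 ratios of -0.60, -0.35, 0.25 and 0.07 in replicates 1 to 4. The arrays with TEA in Cy5 were below 0 and those with TEA in Cy3 above, at means of -0.47 and 0.16. The mean over all arrays was -0.16 ± 0.39 (SD, n = 4), with a 95% interval of -0.58 to 0.27 and a limma adjusted p of 0.872.

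Not3 (CG8426) showed the same division. Its log2 ratios were -0.18, -0.12, 0.83 and 0.13, with means of -0.15 for TEA in Cy5 and 0.48 for TEA in Cy3. The mean was 0.16 ± 0.47 (SD, n = 4), with a 95% interval of -0.32 to 0.64 and a limma adjusted p of 0.872. Replicate 3 carried the mean: without it the value was -0.06 (limma adjusted p = 0.951). As deposited, Pop2 and Not3 were below 0 on all 4 arrays. Over the table, 631 of 2437 probes with 4 values (25.9%) had 1 sign with TEA in Cy5 and the other with TEA in Cy3, and 536 of the 631 were below 0 with TEA in Cy5, as Pop2 and Not3 were.

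Not10 (CG18616), the partner of Not11 in its module, had log2 ratios of 0.03, 0.01 and -0.12 in replicates 1 to 3 and no value in replicate 4. The arrays lay on both sides of 0. The mean was -0.02 ± 0.08 (SD, n = 3), with a 95% interval of -0.40 to 0.35 and a limma adjusted p of 0.982. With 3 arrays the dye orientations were not balanced for this gene.

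**Figure D1:**
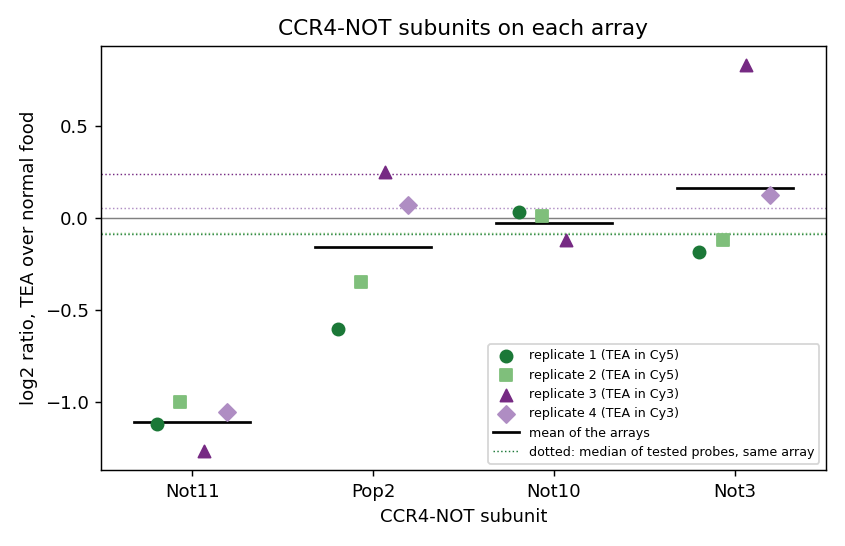
Log2 ratio, TEA over normal food (vertical axis), of the 4 measured CCR4-NOT subunits (horizontal axis). Points are arrays, coloured by replicate and dye; black bars are means; dotted lines are the medians of the tested probes on each array. All 4 points of Not11 lie between -1.27 and -1.0, below every point of Pop2, Not10 and Not3.

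Of the 4 measured subunits, Not11 was the 1 past the limma threshold of 0.05 after Benjamini-Hochberg adjustment, against 0.635% of all tested probes in either direction and 0.540% on the lower side. It was also the 1 subunit of the 4 with 1 sign on every array that held a value, against 18.4% of all tested probes. Since Not11 was chosen with its values known, nothing is read from these counts. Over the table, 0 probes passed with arrays centred on their medians and 0 with a dye term, against 20 as reported. The place of Not11 past the threshold also ended with each spot tested on its own, with the swapped arrays not turned, without any 1 of the 4 replicates and within either dye orientation. It was kept with arrays centred and scaled, with the mean of the probes of a gene and with ceiling values kept. The same held with values required on 4 or on at least 2 arrays. These calls too are a description. The intervals of Pop2, Not10 and Not3 do not show that these subunits were unaffected by TEA.

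Not11 lay below each of the others on every array that held both. Against Not10 the difference, Not11 minus Not10, was -1.15, -1.02 and -1.15 in replicates 1 to 3, a mean of -1.11 ± 0.08 (SD, n = 3). Against Pop2 it was -0.95 ± 0.46 (SD, n = 4), smallest in size in replicate 1 at -0.52. Against Not3 it was -1.27 ± 0.56 (SD, n = 4), largest in size in replicate 3 at -2.10. Taken against the median of the other subunits, Not11 differed by -0.94, -0.88, -1.52 and -1.15 in replicates 1 to 4, a mean of -1.12 ± 0.29 (SD, n = 4). Not10 had no value in replicate 4, so the median there was that of Pop2 and Not3 alone. In order of their means the subunits ran Not11, Pop2, Not10, Not3, and Pop2 and Not3 each differed from Not10, which lay between them, by less than their own SD over arrays.

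The table holds each probe as a pair of neighbouring spots on the same array, and the ratios above are means of these pairs. The Not11 spots had -1.33, -1.12, -1.25 and -1.09 for the first spot and -0.92, -0.88, -1.28 and -1.02 for the second, in replicates 1 to 4. All 8 of these values lay below the lowest of the 22 spot values of the other 3 subunits, which ranged from -0.62 to 1.11. Not11 was chosen with its ratios known, and spots of 1 array are not replicates, so nothing is read from this count. The Not11 spots differed by 0.41, 0.23, 0.03 and 0.06, against medians over the tested probes of 0.11, 0.11, 0.14 and 0.14. The pair was therefore wider apart than usual in replicates 1 and 2 and closer in replicates 3 and 4. The highest value of Not3, in replicate 3, rested on spots at 1.11 and 0.56. The Pop2 spots in the same array stood at 0.03 and 0.47, and the Not10 spots straddled 0 on all 3 arrays with a value.

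Not11 had an SD over arrays of 0.11, against a median of 0.31 over the 2437 probes with 4 values, and 5.01% of these had an SD no larger. This narrow spread was not kept with each array centred on its median, where Not11 had an SD of 0.255, equal to the median of 0.255 over the same probes, and 50.0% had an SD no larger. By size of the mean it stood 46th of the 3150 tested probes. Pop2 and Not3 had SDs of 0.39 and 0.47, above the median.

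**Figure D2:**
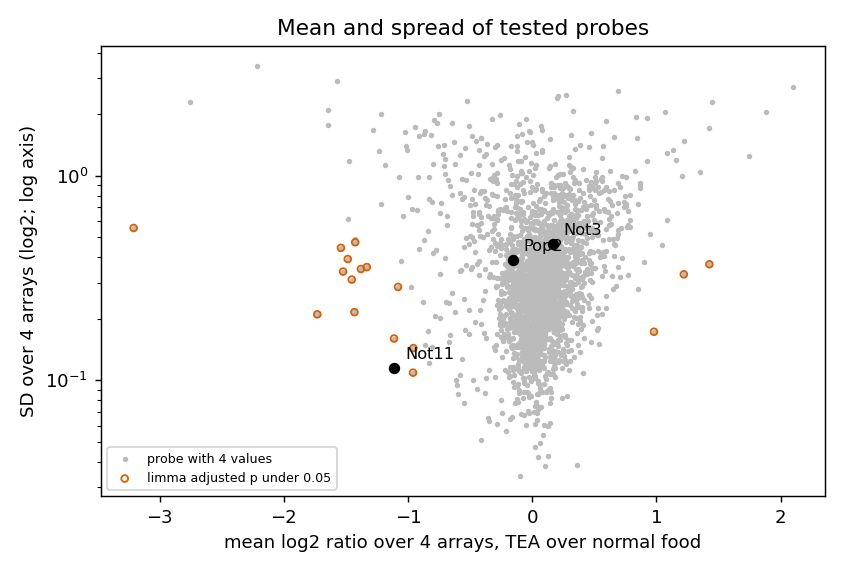
Mean log2 ratio, TEA over normal food (horizontal axis), against the SD over 4 arrays (vertical axis, log scale) for probes with 4 values. Open circles mark probes past the limma threshold, and black points mark Not11, Pop2 and Not3. Not11 combines a mean of -1.11 with an SD of 0.11 (0.255 with centred arrays, which are not drawn), while Pop2 and Not3 sit in the cloud of probes near 0.

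The positions that adjoin Not11 in the table were examined next. Positions are the order of probes in the deposited table. The print layout was not used here, so whether adjoining positions lie side by side on the slide is not known. Not11 was the third of 6 successive positions that were all below 0 on all 4 arrays. The first, an unnamed probe at spots 7419 and 7420, had log2 ratios of -1.95, -1.56, -1.88 and -1.54 in replicates 1 to 4. CG3777, directly before Not11, had -1.71, -1.21, -1.49 and -1.32. COX6AL, a cytochrome c oxidase subunit directly after Not11, had -0.70, -0.63, -0.52 and -0.46.

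The values approached 0 step by step along this series. Means were -1.73 for the unnamed probe, -1.43 for CG3777, -1.11 for Not11, -0.58 for COX6AL, -0.30 for a second unnamed probe and -0.22 for Naa20B, a gene of an N-terminal acetyltransferase subunit. Each of the steps up to the second unnamed probe held on 4 of 4 arrays, and the step to Naa20B on 3 of 4. The order was the same in both dye orientations. With TEA in Cy5 the means were -1.75, -1.46, -1.06, -0.67, -0.38 and -0.36, and with TEA in Cy3 they were -1.71, -1.40, -1.16, -0.49, -0.22 and -0.09.

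The series began abruptly and ended gradually. The position just before the first unnamed probe, a tRNA methyltransferase gene, had log2 ratios of -0.30, -0.08, 0.78 and 0.48, with arrays on both sides of 0. Nil, the position after Naa20B, had -0.33, -0.06, 0.18 and 0.10, again on both sides. Not11 stood between the values of its table neighbours on each of the 4 arrays, and 0.32 nearer 0 in the mean than CG3777. The named genes of the series are not neighbours in the genome. In the RefSeq annotation of the Release 6 assembly, COX6AL lies 1653 genes from Not11 on the same chromosome arm, and CG3777 and Naa20B lie on other arms.

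**Figure D3:**
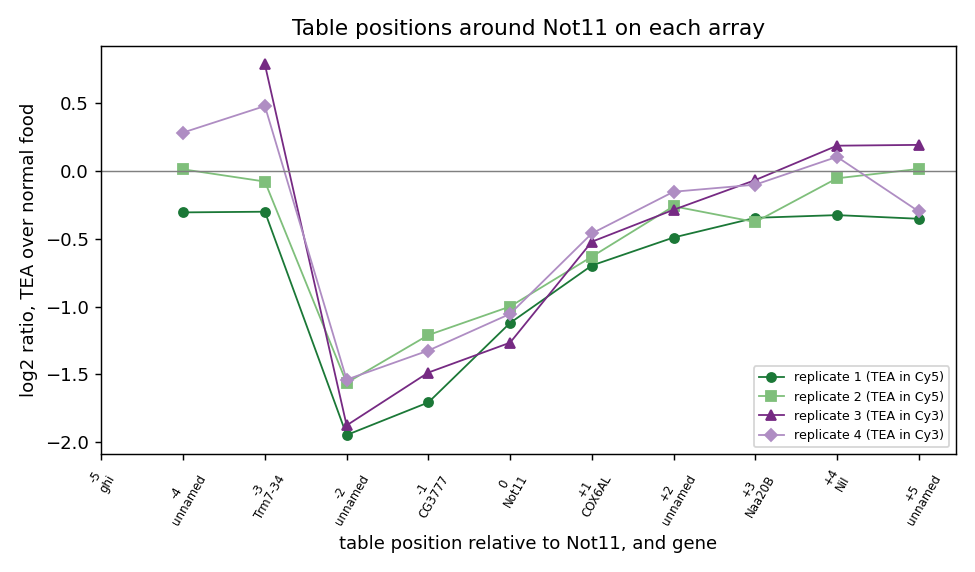
Log2 ratio, TEA over normal food (vertical axis), at the 5 table positions before and 5 after Not11 (horizontal axis, with gene names), 1 line per array. All 4 lines drop at the unnamed probe before CG3777 and climb through Not11 and COX6AL towards 0; ghi, with no value, leaves a gap.

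The other subunits each had arrays on both sides of 0, so none of them could belong to such a series. Only 1 position on each side of them was read, and several of these positions had no value. In the count over the whole table given below, all 11 series of at least 3 positions lay between spots 149 and 7868. The first spots of Not3, Not10 and Pop2 were 55, 11881 and 17973, outside this range. A position without values on all 4 arrays could not be part of a series in that count. Not3 lay between CSN8, a subunit of the COP9 signalosome, at a mean log2 ratio of -0.04 and nerfin-1, a neuronal zinc-finger gene, at -0.02, and all 3 had arrays on both sides of 0. Pop2 was followed by an unnamed probe at 0.34, with the opposite sign, and its preceding position, GlcAT-I, had no value. Both positions beside Not10, hbs and mad2, had no value.

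Series of this form were then counted over the whole table, after the one around Not11 had been seen. A series was taken as successive positions of 1 sign on all 4 arrays, each nearer 0 in the mean than the one before. There were 11 of at least 3 positions, 10 of them with 3 and the 1 holding Not11 with 6. Counted in the other direction, each position further from 0 than the one before, there were 0 of at least 3 positions. Of exactly 2 positions there were 19 in the first direction and 15 in the other. An asymmetry in the same direction appeared around 31 probes with a mean of at least 1 in size and 1 sign on all 4 arrays. The first unnamed probe of the Not11 series, CG3777 and Not11 were among them, so these values partly restate that series. The position directly after had a median of 0.77 in the direction of the probe over 13 tested positions, and the position directly before had 0.15 over 14. Over all tested probes the Spearman correlation between mean log2 ratios of adjoining positions was 0.40 over 1339 pairs. It was 0.29 at a distance of 2 positions, 0.20 at 3 and 0.14 at 5. These pairs share arrays and table order, and the correlations are descriptions across probes.

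**Figure D4:**
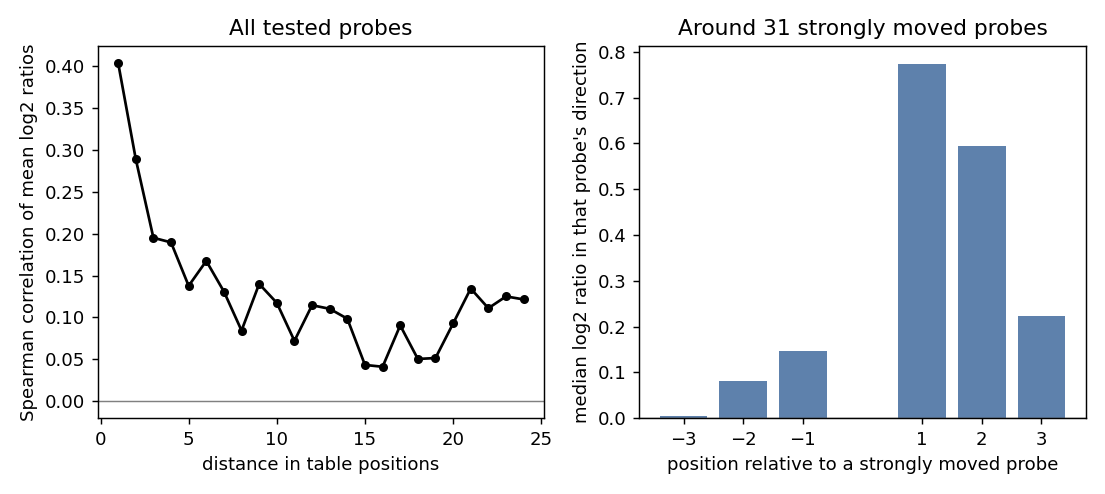
Left, the Spearman correlation between mean log2 ratios of tested probes (vertical axis) by distance in table positions (horizontal axis); it starts at 0.40 for adjoining positions. Right, the median log2 ratio, signed in the direction of the central probe (vertical axis), at positions before and after 31 probes with a mean of at least 1 in size (horizontal axis); the position after stands at 0.77 and the position before at 0.15.

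The named probes whose ratios were most like those of Not11 were found by the root mean square difference over the 4 arrays, among 1033 named probes with 4 values. The nearest was CG18217, at log2 ratios of -0.77, -0.80, -1.01 and -0.75 and a difference of 0.28. CG3777 followed at 0.36, then Rlb1 at 0.47, CG31793, an ABC transporter gene, at 0.48 and CG9471 at 0.50. No CCR4-NOT subunit was among these 5. Of the 5, 4 lay in one of the 11 series described above, CG31793 being the exception, and none of the 4 was the first of its series. CG18217, Rlb1 and CG9471 each came second, after an unnamed probe at -0.88, -0.81 and -1.33, and CG3777 lay in the series of Not11 itself. Being picked for ratios like those of Not11, all 5 were below 0 on all 4 arrays. A single sign on all 4 arrays is also a condition for a series. The share of other probes of this kind that lay in a series was not counted, so nothing is read from this count.

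Other genes of mRNA tail control and decay were read from a list of 70, of which 12 had a tested probe. None of their 13 probes passed the limma threshold, against 0.635% of all tested probes. An unadjusted limma p under 0.05 was reached by 0 of the 13, against 283 of the 3150 tested probes. With so few probes, counts of 0 lie near these shares, and nothing is read from them. The median log2 ratio was -0.03, with 6 probes above 0 and 7 below, beside a median of 0.03 over all tested probes.

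Among the other deadenylation genes, PAN3, the adaptor of the PAN2 nuclease, stood at 0.16 ± 0.43 (SD, n = 4), and cu, the fly nocturnin, at 0.10 ± 0.22 (SD, n = 3). PAN2, the partner nuclease, had no tested probe. Of the factors known to bring CCR4-NOT to target mRNAs, gw, the GW182 protein of microRNA silencing, stood at 0.12 ± 0.42 and 0.05 ± 0.45 on its 2 probes (SD, n = 4 each). brat, a repressor that acts with Pumilio, stood at -0.16 ± 0.47 (SD, n = 3). Tob, whose relatives in mammals recruit the complex, stood at -0.03 ± 0.28 (SD, n = 4). Each of these means was smaller in size than its SD.

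The widest departure in the list was bel, a DEAD-box RNA helicase, at 0.61 ± 0.77 (SD, n = 4; limma adjusted p = 0.66). Its log2 ratios were 0.11, 0.42, 1.75 and 0.16, so all arrays were above 0 and replicate 3 stood far above the rest. Edc3, an enhancer of decapping, stood at -0.26 ± 0.48 (SD, n = 3; limma adjusted p = 0.83), below 0 with TEA in Cy5 and above 0 with TEA in Cy3. DCP2 (CG6169), the decapping enzyme, had log2 ratios of -0.20, -0.20, 0.29 and -0.28 in replicates 1 to 4, above 0 in replicate 3 and below it on the other arrays. Its mean was -0.10 ± 0.26 (SD, n = 4; limma adjusted p = 0.898). The exosome genes Csl4, Rrp46 and Rrp6 lay between -0.10 and 0.08, and orb2, which binds tail-regulating elements in neurons, at -0.10 ± 0.65 (SD, n = 4). The median of the 13 probes was -0.23 in replicate 1, -0.11 in replicate 2, 0.39 in replicate 3 and 0.10 in replicate 4, with the sign of the median of all tested probes on each array.

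Centring each array on the median of its tested probes left the order of the subunits as it was. Not11 then had -1.03, -0.92, -1.51 and -1.11, a mean of -1.14 ± 0.25 (SD, n = 4). Pop2 had a centred mean of -0.19, Not10 of -0.05 and Not3 of 0.13, and the limma adjusted p of these 3 lay between 0.638 and 0.93.

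**Figure D5:**
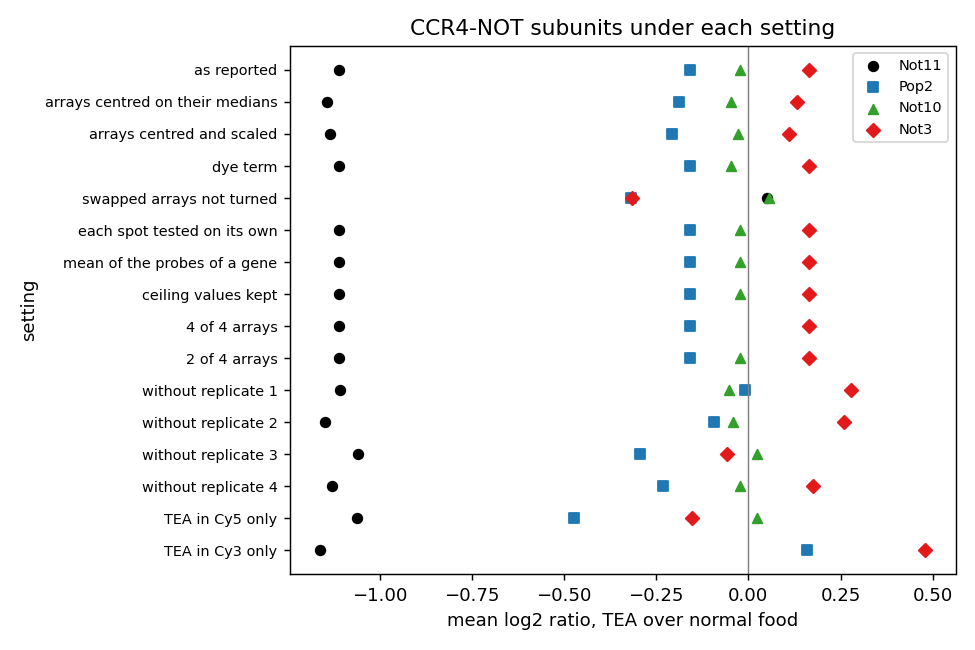
Mean log2 ratio, TEA over normal food (horizontal axis), of the 4 measured subunits under each setting of the processing (vertical axis). Not11 stays between -1.16 and -1.06 except with the swapped arrays not turned, where it stands at 0.05; Pop2, Not10 and Not3 stay between -0.47 and 0.48.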

How the data were processed

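Per the labels' design text, the authors scanned the slides, quantified them with GenePix Pro 6.0 and normalized ratios in Acuity 4.0, leaving out spots with raw intensity under 100 and low signal over background. Spots were then retained by limits on saturated pixels (under 3%), flags, pixel R2 (0.6 or more) and signal to noise (3 or more). What the authors deposited is the log2 ratio of each array in a column of its own; the log2 scale was read from the ceiling of 16.61, the log2 of the largest ratio. No coordinates are given, since the authors' genome build is not given in the sources used here; the RefSeq annotation of the Release 6 assembly served for names and gene order only, and no sequences are printed.

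Ceiling values were set to missing, neighbouring spots averaged to a probe and replicates 3 and 4 sign-reversed. Symbols came from the platform annotation, updated through gene identifiers to RefSeq (Release 6 assembly); of the 3150 tested probes, 1443 had 1 symbol. Probes with values on at least 3 arrays were fitted against 0 with limma 3.58.1 in R 4.3.3 (lmFit, eBayes, intercept only, two-sided, Benjamini-Hochberg over all probes, threshold 0.05). The fit was tested on simulated data. Replicates are separate pools of heads; whether they came from separate fly cultures is not stated beyond separate vials.

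Members and lists were chosen with earlier results of these data known. Genes named were the listed subunits, the tested decay genes, the 5 table positions on each side of Not11 and 1 beside each other subunit, and the 5 probes most like Not11. From the decay list Rcd1 was dropped, since in flies that symbol names another gene, as were Not4 and CAF40, other names of listed genes; the remaining symbols were matched to RefSeq also by letter case and synonym, with nos read as nanos, and repeats of 1 gene were merged. Of the 15 alternatives, the closing section gives the effect.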

Additional observations from a re-analysis of the deposited data

Results flagged for a closer look

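DCP2, the decapping enzyme, had a log2 ratio of 0.294 in replicate 3, far from the other 3 arrays, which lay between -0.282 and -0.195. It was the 1 item of 24 with 4 values in which 1 array stood this far apart, and chance gives about 1 such item in 20. The median of all tested probes was also highest in replicate 3, at 0.241, against -0.088, -0.080 and 0.055 in replicates 1, 2 and 4. Whether DCP2 stood apart with the arrays centred on these medians was not tested.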

How the results depend on the processing

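Not11 kept its direction and lay between -1.16 and -1.06 on the log2 scale under 14 of 15 alternatives; with the swapped arrays not turned it was 0.050. Leaving out 1 replicate gave -1.15 to -1.06. Not11 minus the median of the other subunits (-1.12) ranged from -1.20 to -0.99 without 1 replicate, and was -0.91 with TEA in Cy5 only, -1.48 with TEA in Cy3 only and 0.21 with the swapped arrays not turned. The means of the other subunits changed sign without passing the limma threshold. Not10 (-0.02) was 0.056 with the swapped arrays not turned, and 0.024 both without replicate 3 and with TEA in Cy5 only; without 1 replicate it ranged from -0.0525 to 0.024. Not3 (0.16) was -0.32 with the swapped arrays not turned and -0.15 with TEA in Cy5 only, and without 1 replicate it ranged from -0.059, without replicate 3, to 0.28, and Pop2 (-0.16) was 0.16 with TEA in Cy3 only, and ranged from -0.29, without replicate 3, to -0.0092, without replicate 1. The tRNA methyltransferase gene before the series (0.22) was -0.41 with the swapped arrays not turned and -0.19 with TEA in Cy5 only, and ranged from 0.031, without replicate 3, to 0.39, without replicate 1.

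The count of probes past the limma threshold (20, with 283 at an unadjusted p under 0.05) was 0 with arrays centred on their medians (310 unadjusted), 0 with a dye term (427), 0 with the swapped arrays not turned (353), 0 with each spot tested on its own (497), 12 with the mean of the probes of a gene (123), 3 with TEA in Cy5 only (637) and 0 with TEA in Cy3 only (300). It ranged from 0 to 4 without 1 replicate: 4 without replicate 1, 0 without replicate 2 (178 unadjusted), 1 without replicate 3 and 0 without replicate 4 (331). Tests numbered 3150 as reported, 6245 with spots taken singly and 1379 with gene means. Within TEA in Cy5 they numbered 3116 and within TEA in Cy3 2471. Counts from these 4 settings are therefore out of other totals, and a higher or lower count there is not by itself a higher or lower share. The cause of the differences in count was not tested. The settings without 1 replicate and within either dye orientation also had fewer arrays. The decay list had 0 members past the limma threshold under all 15 alternatives, and its median of -0.03 became 0.36 with TEA in Cy3 only, over 9 probes, 0.045 over the 9 probes with 4 values and 0.0077 with values on at least 2 arrays; without 1 replicate it ranged from -0.16, without replicate 3, to 0.074, without replicate 2.

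No paired analysis was possible because each array already holds the ratio of 1 TEA pool to 1 normal-food pool, and all arrays form 1 group. Spots without a value, scanner intensities and signal over background were not analysed here, so the precision of single spots is not known.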
